A study of Mus musculus with 6 samples.

Results

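Platelet and megakaryocyte genes were examined in embryoid bodies, clusters of differentiating mouse embryonic stem cells. The set holds 9 genes: Gp5, Gp1bb, Gp9, Itga2b, Itgb3, Pf4, Ppbp, F10 and Gfi1b. Every probe set annotated to 1 of these genes alone was taken, which gave 13 of the 45037 probe sets without array controls. Another probe set, annotated to Gp1bb together with Septin5, was left out. Of the 13 probe sets, 6 genes had 1 each, 2 genes had 2 and F10 had 3. The genes were chosen with their difference between doxycycline and control, and their level against background, already known. Those values are therefore given as a description, with no test. The differences between the experiments were not a criterion of that choice, though the level on each array was known. These differences were tested for 5 of the genes.

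The embryoid bodies were grown from the Hoxb4i line, embryonic stem cells in which doxycycline switches on HOXB4 through an integrated tet-on cassette. Cells were seeded at 3500 cells/ml, and all embryoid bodies carried the cassette and were harvested at day 6. The group with doxycycline received 2 µg/ml from day 4, for 48 hours. The group without doxycycline was not induced. Each group held 3 biological replicates, lettered A, B and C as experiments, so that each experiment had 1 array with and 1 without doxycycline. A line without the cassette given doxycycline was not analysed here, so HOXB4 and doxycycline itself cannot be told apart.

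Megakaryocytes are the large blood cells that shed platelets, and they arise from progenitors shared with the red cell lineage. The integrin pair encoded by Itga2b (CD41) and Itgb3 (CD61) binds fibrinogen on platelets, and CD41 also marks the first blood progenitors of the embryo and of embryoid bodies. GP5, GP1BB and GP9 are leucine-rich repeat glycoproteins of the platelet receptor for von Willebrand factor. Pf4 and Ppbp encode chemokines stored in platelet granules, F10 encodes coagulation factor X, made mainly by liver, and Gfi1b encodes a zinc finger repressor needed by red cells and megakaryocytes.

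Promoter sequence is shown for the 4 genes whose arrays are described most closely below: Gp5, which had the largest mean difference, Itga2b and Pf4, the integrin and chemokine genes that rose above background, and Gfi1b, which varied most. Each run is the 250 bases before the annotated start in RefSeq on GRCm38.p6, 5′ to 3′ on the gene's strand, and capitals mark matches to the GATA factor motif. The motif was searched on both strands in 4 spellings, namely AGATAA and its variant AGATAG, and TGATAA and its variant TGATAG.
Gp5, chr16:30310782-30311031, minus strand: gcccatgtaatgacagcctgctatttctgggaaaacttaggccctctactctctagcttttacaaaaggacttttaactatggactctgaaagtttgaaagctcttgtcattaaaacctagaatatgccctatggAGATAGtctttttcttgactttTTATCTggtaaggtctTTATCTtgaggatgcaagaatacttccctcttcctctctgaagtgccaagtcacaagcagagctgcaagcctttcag
Gfi1b, chr2:28621983-28622232, minus strand: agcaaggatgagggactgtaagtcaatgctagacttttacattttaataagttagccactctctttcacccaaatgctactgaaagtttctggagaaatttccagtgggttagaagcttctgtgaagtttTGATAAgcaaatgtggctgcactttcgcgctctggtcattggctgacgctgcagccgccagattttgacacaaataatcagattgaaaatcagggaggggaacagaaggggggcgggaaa
Itga2b, chr11:102469884-102470133, minus strand: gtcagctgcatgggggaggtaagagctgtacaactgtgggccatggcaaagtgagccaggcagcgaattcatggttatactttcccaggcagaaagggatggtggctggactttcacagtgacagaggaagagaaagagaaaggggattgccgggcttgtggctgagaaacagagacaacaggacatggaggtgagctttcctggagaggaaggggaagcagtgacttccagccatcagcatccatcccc
Pf4, chr5:90772185-90772434, plus strand: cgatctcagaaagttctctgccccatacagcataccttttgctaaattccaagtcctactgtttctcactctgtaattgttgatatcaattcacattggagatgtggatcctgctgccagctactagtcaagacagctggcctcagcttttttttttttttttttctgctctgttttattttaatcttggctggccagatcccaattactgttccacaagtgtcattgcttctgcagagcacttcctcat

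A promoter was listed for 8 of the 9 genes. In the 250 bases before the start, 3 of the 8 held the GATA motif, against 26.5% of 32851 promoters in the same table. Gp5 held it 3 times, beginning 115, 93 and 77 bases before the start. Gfi1b held it once, at 120 bases, and Gp1bb once, at 22 bases. A motif of ETS factors (CAGGAAG or CCGGAAG) was in 0 of 8, against 17% of all promoters, and the homeobox motif TAATTA in 0 of 8, against 4.84%. Only the spellings given were searched, so other forms of these motifs were not counted. The counts are matches of letters in a window and do not show binding.

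The median signal per array was 92.0 to 108.6, and precision is set by how few arrays there are. The uninduced array of A stood apart in quality, with a ratio of 3' to 5' control signal for Actb of 2.88, against 1.26 to 1.48 on the other 5 arrays. Hoxb4, the gene that doxycycline is meant to induce, had signals of 116.4, 129.5 and 175.5 in A, B and C with doxycycline on 1451761_at, against 46.5, 119.8 and 113.5 without. On 1460379_at it had 136.3, 261.4 and 150.7 with, against 78.2, 253.0 and 27.6 without. Each was higher with doxycycline in 3 of 3, as were 13.1% of all probe sets, but barely so in B, and neither passed in limma (unadjusted p = 0.198 and 0.211). Whether either reads the cassette is not stated in the labels, and "induced" below means only that doxycycline was given. In limma, 0 of 27022 tested probe sets (0.0%) passed an adjusted p of 0.05 for doxycycline, with 138 at an unadjusted p under 0.05. With the experiment as a replicate block the count was again 0 (0.0%), with 1065 at an unadjusted p under 0.05.

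A large share of the platelet gene probe sets read at background in these embryoid bodies. Because the deposited table holds no detection calls, 87 probe sets of olfactory, vomeronasal, taste and trace amine receptor genes stood in for probe sets without transcript. Their median signal over all arrays was 17.1, and their 95th percentile ran between 60.6 and 111.3 over the 6 arrays. Of the 13 probe sets, 7 lay at or below that percentile on all 6 arrays, with signals between 0.9 and 72.1 and a median of 10.95. The same held for 31.3% of all probe sets. Only Itga2b lay above it on all 6 arrays, as did 42.8% of all probe sets, and the other 5 probe sets did so on some arrays. Gp9, Ppbp and Itgb3 had no probe set above it on any array, so 3 of the 9 platelet genes were not detected by this measure.

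**Figure D1:**
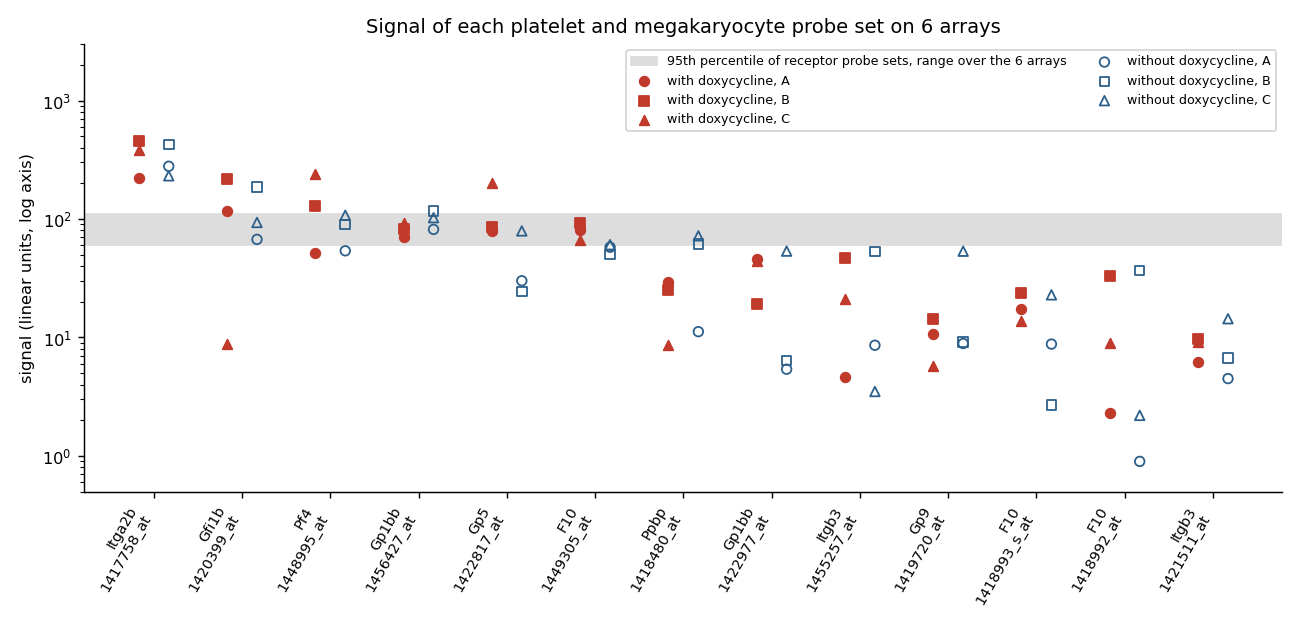
Signal of the 13 probe sets (linear units on a log axis), ordered by mean signal, with filled points for arrays with and open points for arrays without doxycycline, and a marker shape for each experiment. The grey band spans 60.6 to 111.3, the 95th percentile of receptor probe sets over the 6 arrays. Itga2b lies above the band on every array, and 7 probe sets never rise above 72.1.

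Among the von Willebrand receptor genes, Gp5 was the one whose groups did not overlap. On probe set 1422817_at (gene on chromosome 16, 30307685 to 30310781, GRCm38.p6), Gp5 had signals of 79.4, 85.7 and 202.6 in A, B and C with doxycycline, against 30.1, 24.4 and 79.3 without. Each array with doxycycline was above the receptor percentile and each array without was below it, a pattern found on 0.0666% of all probe sets. Gp5 was chosen with these values known, so nothing is read from that share. The uninduced array of C, at 79.3, was just under its percentile of 80.3. It was level with the induced array of A, at 79.4.

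The Gp5 difference was of like size in each experiment. On the scale of log2(signal + 18.8), where 18.8 is an offset that shrinks the differences of dim probe sets, the 3 experiments gave 1.01 (A), 1.27 (B) and 1.17 (C), with little spread (mean 1.15 ± 0.14, SD, n = 3). Gp5 averaged 122.6 ± 69.4 with and 44.6 ± 30.2 without doxycycline (SD, n = 3 each). With both arrays of A left out the mean difference was 1.22. With an offset of 1 it was 1.49. Leaving out single arrays, which unbalances the experiments between the groups, moved it between 0.78 and 1.52. Among all probe sets 0.0777% were over 2-fold higher in all 3 experiments, a share from which nothing is read either.

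Gp1bb, the beta chain of the receptor, was read by a pair of probe sets that disagreed. Probe set 1456427_at had signals of 70.1, 82.1 and 93.4 with doxycycline, against 81.7, 117.3 and 102.6 without, and was lower in all 3 experiments, by -0.18, -0.43 and -0.11. Its groups overlapped. Probe set 1422977_at had signals of 46.4, 19.2 and 44.4 with doxycycline, against 5.4, 6.4 and 53.6 without, and differed by 1.43, 0.59 and -0.20. All of its signals lay at or below the receptor percentile. The mean of both probe sets was 0.18, against -0.24 for 1456427_at alone, so no direction can be given for Gp1bb. Gp9, the third subunit gene named here, had signals of 10.7, 14.4 and 5.7 with doxycycline, against 8.9, 9.2 and 53.5 without. Its mean difference of -0.41 came from C, at -1.56, beside 0.09 in A and 0.25 in B.

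Itga2b was above background on every array and had no common direction with doxycycline. Its signals on 1417758_at (chromosome 11, 102453297 to 102469883) were 223.9, 454.6 and 380.0 with doxycycline, against 278.7, 424.1 and 231.5 without. The groups overlapped, and both arrays of B were the highest of their group. The difference was negative in A (-0.29) and positive in B (0.10) and C (0.67), with a mean spread over both signs (mean 0.16 ± 0.49, SD, n = 3), and 0.38 with both arrays of A left out.

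Its partner Itgb3, which also pairs with the alpha v integrin on other cells, stayed dim. Probe set 1455257_at had signals of 4.6, 47.0 and 21.0 with doxycycline, against 8.6, 53.4 and 3.5 without. Both arrays of B were again the highest, with doxycycline or without. Probe set 1421511_at had signals of 6.2 to 9.8 with and 4.5 to 14.4 without doxycycline.

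Of the chemokine genes, which lie side by side on chromosome 5, Pf4 was above the receptor percentile on 4 of 6 arrays and Ppbp on none. Pf4 (1448995_at, gene at 90772435 to 90773383) had signals of 51.7, 128.1 and 240.5 with doxycycline, against 53.9, 89.7 and 107.6 without. The groups overlapped, and both arrays of C were the highest of their group. Experiment A showed almost no difference (-0.04), B 0.44 and C 1.04 (mean 0.48 ± 0.54, SD, n = 3). Ppbp (1418480_at) had signals of 29.2, 25.4 and 8.7 with doxycycline, against 11.2, 61.8 and 72.1 without, all within the range of the receptor probe sets. It differed by 0.68 in A, but by -0.87 in B and -1.72 in C, negative in both experiments where that of Pf4 was positive.

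F10, the coagulation factor, had groups that did not overlap on 1 of its 3 probe sets. On 1449305_at the signals were 81.0, 91.8 and 66.8 with doxycycline, against 57.8, 50.2 and 60.7 without, all higher with doxycycline. It differed by 0.38 in A, by 0.68 in B and by 0.11 in C (mean 0.39 ± 0.29, SD, n = 3). Only the induced arrays of A and B rose above the receptor percentile. The other probe sets, 1418993_s_at and 1418992_at, had signals of 2.3 to 32.9 with and 0.9 to 36.9 without doxycycline, and their groups overlapped.

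Gfi1b, the transcription factor of the set, varied most. On 1420399_at (chromosome 2, 28609450 to 28621982) its signals were 116.3, 217.8 and 8.8 with doxycycline, against 67.3, 185.9 and 93.5 without. The induced array of C fell to within the receptor signals, where 27.6% of receptor probe sets lay at or below it. It differed by 0.65 in A and 0.21 in B, but by -2.02 in C. Without the induced array of C the mean difference between the groups was 0.51, against -0.39 on all 6 arrays, so the direction rested on that array.

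**Figure D2:**
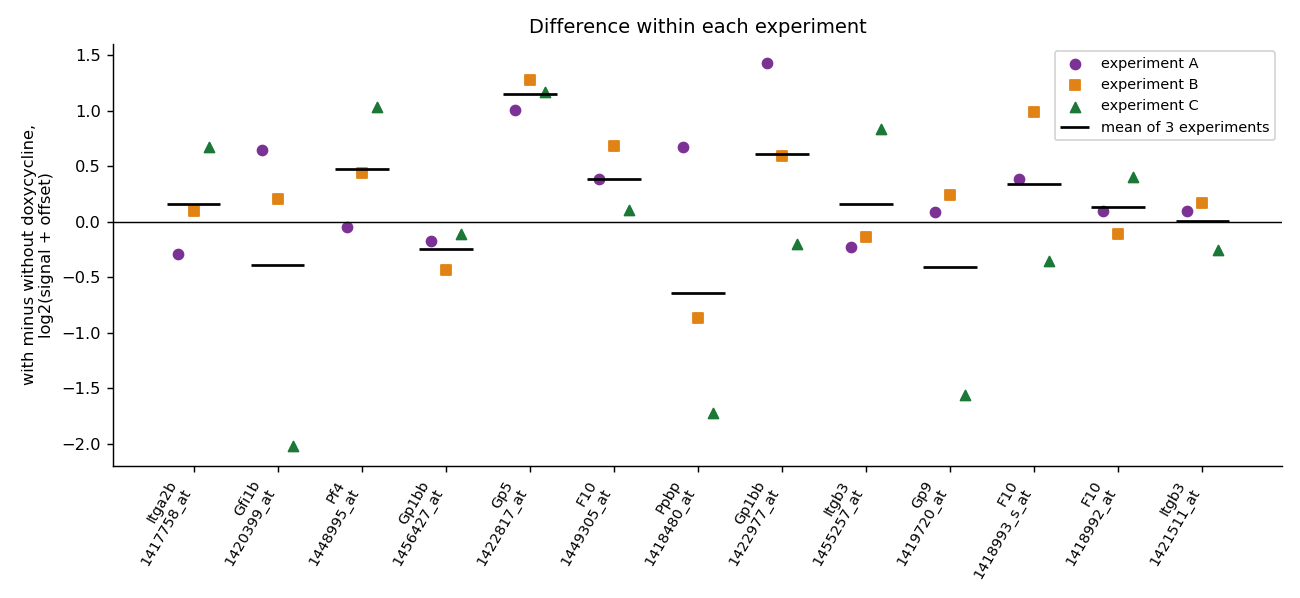
Difference with minus without doxycycline on the log2(signal + 18.8) scale for each of the 13 probe sets, with a point for each experiment and a bar at the mean of the 3 experiments. Gp5 lies at 1.01 to 1.27 in all experiments, while Gfi1b spans -2.02 to 0.65.

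Counted over the set, 2 of 13 probe sets were higher with doxycycline in 3 of 3 experiments and 1 was lower, against 13.1% and 12.5% of all probe sets. In 2 of 13 every array with doxycycline lay above every array without, against 3.25% of all probe sets, and in 0 of 13 below, against 2.82%. The 2 were Gp5 and F10. The mean difference was positive on 9 and negative on 4, with a median of 0.16, against 0.01 over all probe sets. Taken by experiment, A had a median of 0.10, B of 0.21 and C of -0.11. Of the 13, 6 passed the filter on low signal, each the brightest probe set of its gene. Since these differences chose the genes, nothing is read from these counts.

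Between the experiments the members peaked in different ones. Itga2b and Gfi1b had their highest signals in B, and Pf4 and Gp5 in C. In a limma fit with doxycycline as a covariate, 3138 of 27022 probe sets (11.6%) differed between experiments at an adjusted p of 0.05, and Pf4, Gfi1b, Itga2b, Gp1bb and F10 did not pass. In the single contrasts these 5 genes did not pass either, against 4.33% of probe sets higher and 5.26% lower in C minus B, 2.52% and 4.29% in C minus A, and 2.09% and 1.91% in B minus A. The adjusted p of the F test was 0.125 for Pf4, 0.137 for Gfi1b, 0.214 for Itga2b, 0.755 for Gp1bb and 0.983 for F10. Gp5 passed the filter, a mean signal of 60.5, only through C, with a mean of 141 there, 54.8 in A and 55.1 in B, so its differences between experiments are given without a test.

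The sizes behind these tests were wide, and the intervals, unlike the p-values beside them, are not adjusted for the number of tests. Gfi1b was lower in C than in B by a log2 difference of -1.98, with a 95% confidence interval of -3.44 to -0.52 (limma, adjusted p = 0.0982). That difference was -0.76 without the C array with doxycycline and -3.21 without the C array that had none. Pf4 was at 1.34 in C minus A (0.39 to 2.29, adjusted p = 0.0865) and Itga2b at 0.77 in B minus A (0.06 to 1.48, adjusted p = 0.181). Leaving out the A array with doxycycline gave 0.43 for Itga2b, and leaving out the other A array gave 1.11. Gp5 differed by 1.13 in C minus B and by 1.09 in C minus A. For F10 and Gp1bb the intervals of all 3 contrasts held 0, the widest running from -1.09 to 0.92 for F10.

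Single arrays decided these calls. Without the uninduced array of A, the F test passed for Gfi1b, Itga2b and Pf4. Gfi1b also passed with the induced A array left out, and with the uninduced C array left out. Each of these fits leaves a single array in the experiment concerned, so the passes are given as a description. With an array of A left out the spread came from B and C alone, and 8755 probe sets passed when it was the uninduced one and 13806 when it was the induced one.

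**Figure D3:**
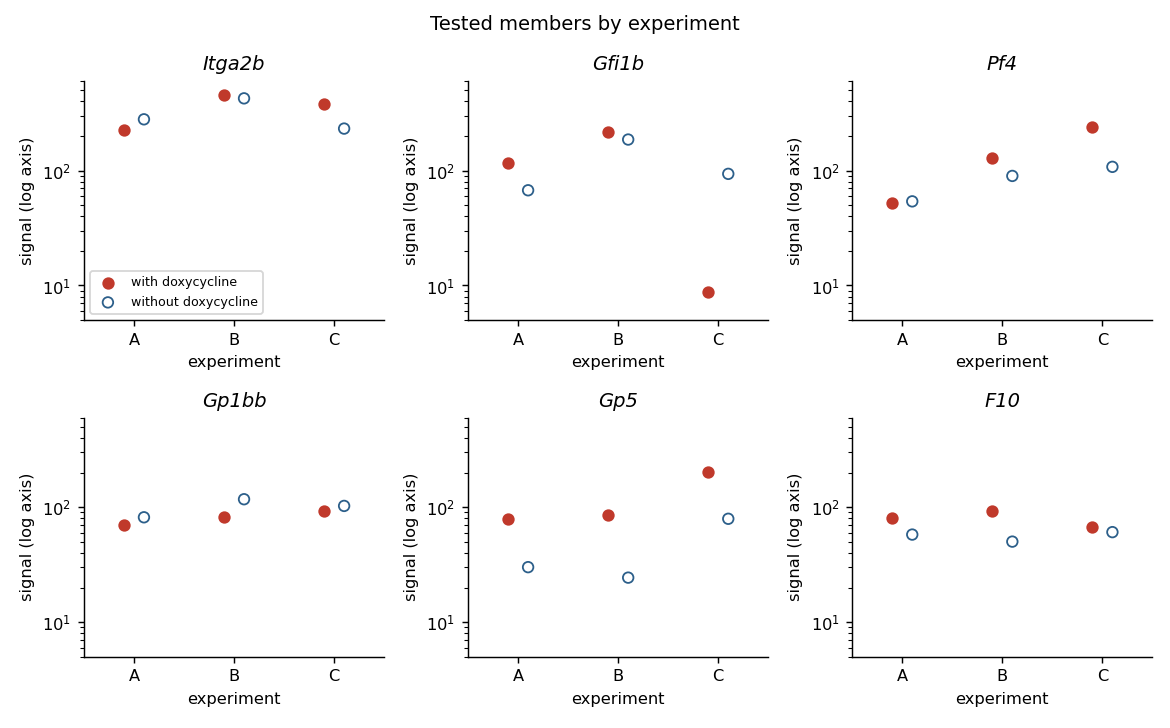
Signal (log axis) of the brightest probe set of the 6 genes that passed the filter, in experiments A, B and C. Filled points are arrays with and open points arrays without doxycycline. Gp5 is higher with doxycycline in each experiment, Itga2b and Gfi1b peak in B, and Pf4 is highest in C at 240.5.

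Marker lists of other cell types also differed between the experiments, and their summed signals are given beside the platelet genes. The summed signal of 12 erythroid genes was 6136.7, 30653.9 and 6592.8 in A, B and C with doxycycline, against 3269.8, 42404.0 and 8219.7 without. Most of the B sums came from Hbb-bh1, at 20436.5 with and 27950.9 without doxycycline. Most of the C sums came from Tfrc, at 4759.7 with and 6282.8 without, above its B signals of 3886.2 and 5020.3. For 14 endothelial genes the summed signal was 3914.4, 12107.1 and 1559.4 with, against 2111.1, 10491.9 and 2210.3 without. For 14 blood progenitor genes it was 4176.0, 7225.1 and 2541.3 with, against 3117.1, 6603.7 and 3068.8 without. All 3 lists were highest in B, as Itga2b and Gfi1b were, whereas Pf4 and Gp5 were highest in C.

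The median log2 difference C minus B was -1.97 over 9 tested erythroid genes and -2.68 over 14 endothelial genes, against 0.07 over all tested genes. Some genes of both lists passed the filter on low signal only through B, so these medians are given without a test. Alas2 (erythroid) had 142.4 and 165.6 in B and at most 31.5 elsewhere. Erg (endothelial) had 308.9 and 245.1 in B and at most 57.5 elsewhere. Visceral endoderm genes (18 on the array) summed to 2292.5 in C with and 2097.0 without doxycycline. On the other 4 arrays the sum was 10723.9 to 20641.5. Most of the B sums came from Ttr, at 10701.3 with and 11110.3 without doxycycline. Not every gene of the list went with the sum, as Amn and Cubn were higher in C than in B in both groups. F10 differed by -0.08 in C minus B. Macrophage and leukocyte genes stayed between 863.4 and 1280.3, and 4 of the 14 were at background on all arrays. In these whole embryoid bodies fewer cells of a type and less RNA per cell cannot be told apart, and the part of these cell types in the platelet gene signals was not tested.

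**Figure D4:**
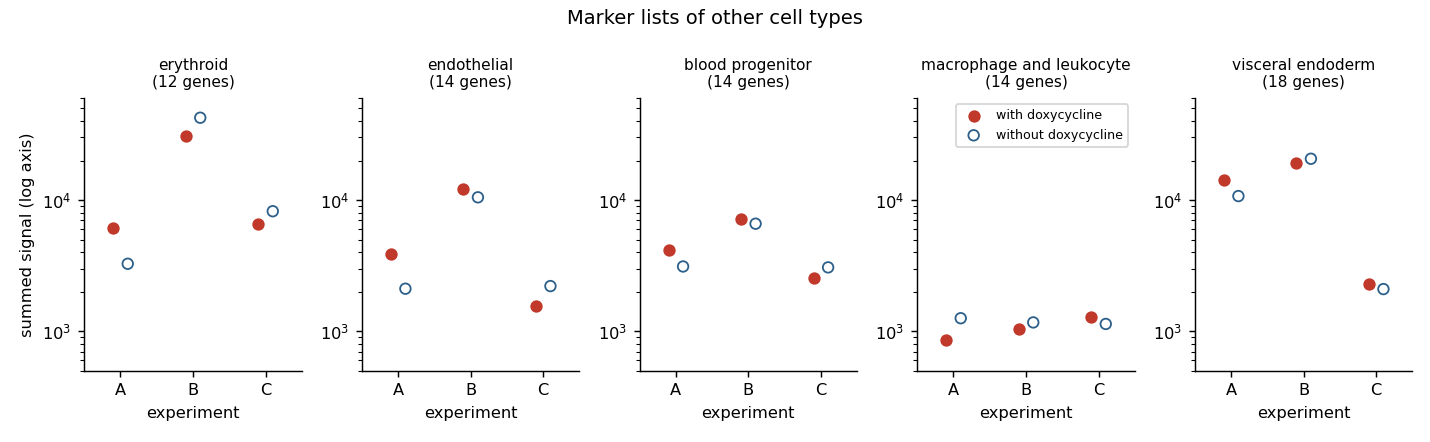
Summed signal (log axis) of marker lists for other cell types on the arrays of experiments A, B and C, with filled points with and open points without doxycycline. The erythroid sum, mostly Hbb-bh1 in B, is 30653.9 and 42404.0 there, against 8219.7 or less on the other arrays. The visceral endoderm sum is lowest in C.

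The wider megakaryocyte, platelet and coagulation genes were read from 5 lists of 105 genes in all, of which 96 were on the array and 68 passed the filter. With doxycycline 44 of the 68 had a positive and 24 a negative mean difference. Of all 12452 tested genes, 6602 were positive and 5850 negative. The median of the 68 was 0.09, against 0.02 over all tested genes. In limma 0 of 68 passed for doxycycline, with 0 at an unadjusted p under 0.05. With the replicate block 0 passed and 8 had an unadjusted p under 0.05, against 3.08% of all tested genes. The lists were chosen with earlier results of these data known. Nothing is therefore read from the counts of this set or of the lists below. In 2 genes the arrays with doxycycline all lay above those without, and in 1 below, against 2.21% and 1.73% of all tested genes. These 3 genes, named after their values were seen, were the GATA1 complex member Ldb1 (mean difference 0.49), the thromboxane synthase gene Tbxas1 (0.64) and the blood regulator Runx1 (-0.84).

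Of 17 megakaryocyte transcription factors 9 were positive and 8 negative, with a median of 0.05. Runx1, on the brightest of its probe sets, had signals of 77.6, 83.7 and 41.6 with doxycycline, against 98.1, 169.1 and 136.4 without. Fli1, an ETS factor of megakaryocyte genes, had 134.7, 354.4 and 57.6 with, against 39.8, 318.2 and 35.0 without (mean difference 0.68). Zfpm1, the GATA1 partner FOG1, had 1074.1, 1439.2 and 357.9 with, against 863.3, 868.3 and 181.2 without (0.65). Fli1 and Zfpm1 had positive differences in all 3 experiments, but their groups overlapped because the experiments lay far apart.

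Among 12 receptor and surface genes 7 were positive and 5 negative (median 0.01), the largest differences being those of the thromboxane receptor gene Tbxa2r at 0.51, the integrin gene Itgb1 at 0.38 and the tetraspanin gene Cd9 at -0.34. Among 12 granule and secreted genes 7 were positive and 5 negative (median 0.04), led by Timp3 at -0.64, Tgfb1 at 0.41 and Pdgfb at -0.41. Among 18 signalling and cytoskeleton genes 14 were positive and 4 negative (median 0.17), led by the myosin kinase gene Mylk at -0.74, Tbxas1 at 0.64 and the focal adhesion gene Zyx at 0.57. Among 9 coagulation genes 7 were positive and 2 negative (median 0.12), led by the inhibitor gene Tfpi at 0.50, Ggcx, whose enzyme carboxylates factor X, at 0.35 and the thrombomodulin gene Thbd at 0.30. With the replicate block the smallest adjusted p among the genes named here was 0.930.

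**Figure D5:**
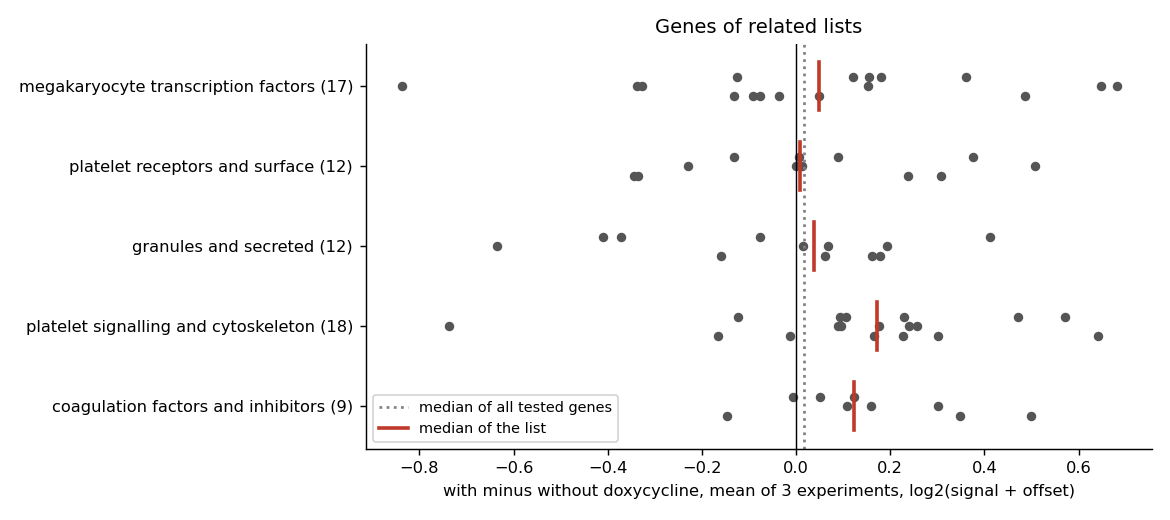
Mean difference with minus without doxycycline on the log2(signal + 18.8) scale for each tested gene of 5 related lists, with the number of genes in brackets, a bar at each list's median and a dotted line at 0.02, the median of all tested genes. The list medians lie between 0.01 and 0.17, and single genes between -0.84 and 0.68.

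The related genes were also compared between experiments. The lists were chosen with earlier results of these data known. Some genes passed the filter only through B, as Nfe2 did, with 230.9 and 229.5 there and at most 48.2 elsewhere. Esam is also in the endothelial list and Tal1 in the blood progenitor list. Nothing is therefore read from the share that passed. Apart from Pdgfb, the genes named below were picked by the smallest p of the F test in their list. Their p-values, and those with arrays left out, come from these same data and only describe that pick. Of the 68, 23 passed the F test, against 14.0% of 12452 tested genes, and this count was 13 to 45 with single arrays left out, the highest being without the induced array of A. The genes with the smallest p in their list that passed on all 6 arrays and without any single array were Zfpm1, Mef2c, Srgn, Tgfb1, Gng11 and Mylk. Zfpm1 stood at -2.05 in C minus B (limma, adjusted p = 0.00186) and the endothelial and megakaryocyte factor Mef2c at -3.09 (0.000867). Gng11, a G protein subunit gene, stood at -3.18 (0.000983) and Tgfb1 at -3.33 (0.000826). The proteoglycan gene Srgn stood at 2.45 (0.00302) and Mylk at 3.28 (0.000339), both higher in C. Fli1 (-2.47), Esam (-3.08), Timp3 (-1.90), F2r (-1.21), Tfpi (-1.23) and Fermt3 (-1.91) also passed the F test on all 6 arrays but each lost the call without at least 1 array. For Fli1, Esam and Timp3 that array was the uninduced one of B, for F2r the induced one of B and for Tfpi the induced one of C. Fermt3 lost it without any 1 of the arrays of B or C, as did Pdgfb (-1.74). Itgb1, Pros1 and Procr, chosen by the same rule, did not pass (adjusted p = 0.054, 0.0933 and 0.137).

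Likeness of pattern was measured as the root mean square difference of centred log2 values over the 6 arrays, against 12446 other genes. For Gp5, which ranged over 2.36 log2 units, the nearest genes were B230311B06Rik (0.26), Tcl1b1 (0.27) and 4930423M02Rik (0.28). For Pf4, which ranged over 1.88, they were Kcnab2, Lyrm1 and Meis1 (each 0.19). Meis1, a homeobox factor and Hox cofactor of early blood cells that also stands in the transcription factor list, had signals of 310.7, 592.2 and 930.9 with doxycycline, against 362.9, 562.2 and 573.2 without. For Gfi1b, with a range of 3.10, they were Evx1 (0.20), Vamp5 (0.23) and Gjb5 (0.24), all dim on the induced array of C. That follows from picking the nearest genes over 6 arrays. How near genes would come by chance was not tested, for any member.

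The flatter members had closer neighbours. For Itga2b these were Slc30a7 (0.09), Wbp1l (0.09) and Crat (0.12), for F10 Fibp (0.05), Pml (0.06) and Mcoln1 (0.07), and for Gp1bb Pttg1 (0.04), Fam91a1 (0.06) and Ppp3r1 (0.06). No member was among another's nearest genes by these sizes: the closest pair of members, Gp1bb and Itga2b, differed by 0.36, and Gp5 and Pf4 by 0.53.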

How the data were processed

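RNA of 6 embryoid body samples was hybridised to Affymetrix Mouse Genome 430 2.0 arrays, after labelling of 4.3 µg of total RNA per the labels' protocols. The authors deposited 1 linear intensity per probe set and array, made with MAS5 per the submitters' processing notes; no source used here gives its version or parameters. After trimming 2% off each end the mean was 500 on every array. No further normalization was applied, and differences were taken on log2(signal + 18.8), 18.8 being the 20th percentile of all deposited values.

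Of 45101 probe sets, 64 controls were left out, and 27022 with a mean at or above the 40th percentile were tested. Names came from GEO's platform annotation, updated through the Entrez ID to RefSeq (GRCm38.p6) for 34741 of 34945 probe sets with 1 gene; 932 had several genes and 9160 none. A gene with several probe sets was led by the brightest.

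limma 3.58.1 in R 4.3.3 (empirical Bayes with intensity trend, two-sided, Benjamini-Hochberg over all tested probe sets, threshold 0.05) compared the groups, and the experiments with doxycycline as covariate. The fits were tested on simulated data. Each letter stands for 1 experiment in the labels, and deviations from the group means correlated at 0.445, 0.671 and 0.66 for the pairs of A, B and C, so the letters were taken to pair the arrays. The labels call the replicates biological.

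Members and lists were chosen with earlier results of these data known. Named were all member probe sets and, per related list, the 3 genes with the largest doxycycline difference and the 3 with the smallest experiment F test p. For each member that passed the filter, the 3 genes most like it were also named. Alternatives were the offset, scaling, filter, trend, replicate block and left-out arrays.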

Additional observations from a re-analysis of the deposited data

How the results depend on the processing

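For doxycycline, 0 probe sets passed under every alternative run, the replicate block included (0 passed, smallest adjusted p 0.930), so that pairing the arrays changed no call. The number differing between experiments was 3138, and 1186 without the intensity trend; with 1 array left out it was 1502 to 13806. For C minus B it was 1686 without the trend and 1018 to 8126 with an array left out; for C minus A 1089 with no filter, 174 without the trend and 264 to 9709; for B minus A 702, 76 and 139 to 9262. Against the 40th percentile of all probe sets, 2 members and not 1 were above background on all arrays. Some experiment contrasts changed sign, among them Gfi1b C minus A, which was -0.95 on all 6 arrays. Under median scaling B minus A was 0.0668 for F10 and 0.0142 for Gp5. With 1 array left out, F10 ranged from -0.301 to 0.136 in C minus B, -0.296 to 0.128 in C minus A and -0.22 to 0.217 in B minus A. Gp1bb ranged from -0.149 to 0.137 in C minus B, Gfi1b from -2.18 to 0.273 and Itga2b from -0.152 to 0.619 in C minus A, and Gp5 from -0.154 to 0.0647 in B minus A. No contrast passed on the sign it had turned to, and the causes were not tested. The limits are 3 arrays per group, 1 array per group and experiment, no detection calls, and signals near background for most members.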
